A study of Homo sapiens with 6 samples.

Results

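UCA1, a long non-coding RNA of epithelial cells first described in bladder cancer, was examined together with 9 other well-known long non-coding RNAs in prostate epithelial cells with lowered PKCλ/ι. The 10 genes were UCA1, NEAT1, MALAT1, H19, PVT1, GAS5, SNHG1, SNHG12, MIR31HG and TINCR, chosen by symbol with earlier results of the same arrays known. UCA1 was picked on its measured difference between the lines in these arrays, so its values are given as a description with no test. A member counted as measured where a probe set was annotated with its symbol and no other. By that rule 4 of the 10 were measured, with 5 probe sets, among 18404 genes in all: UCA1, MIR31HG and TINCR had 1 probe set each and MALAT1 had 2. H19, GAS5, SNHG1 and SNHG12 appeared only on 14 probe sets that also name another gene, mostly a small nucleolar RNA, and were given no value of their own. NEAT1 and PVT1 were not analysed here.

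The tested cells were PrEC, an immortalized normal prostate epithelial line, carrying the short hairpin RNA named shPKCi against PKCλ/ι, an atypical protein kinase C of epithelial polarity encoded by PRKCI. The reference was the same line with the hairpin named shNT. Each group had 3 samples, described by the series as biological replicates, with 1 array per sample, and all cells were harvested 48 hours after plating under basal conditions. The labels name 1 hairpin against PKCλ/ι and do not say whether a line was a clone, and the number of arrays limits the precision of every value. PRKCI had intensities of 800, 810 and 754 in the shPKCi arrays, against 1635, 1428 and 1843 in the shNT arrays. Its log2 fold change, here always shPKCi over shNT, was -1.05 (SE 0.11, limma adjusted p = 0.000279).

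Long non-coding RNAs are transcripts that make no known protein and act, where a function is known, as RNA. NEAT1 builds the nuclear bodies called paraspeckles, MALAT1 sits in nuclear speckles with splicing factors, and H19 is an imprinted transcript that carries a microRNA. GAS5, SNHG1 and SNHG12 are host genes whose introns are cut into small nucleolar RNAs (snoRNAs), the guides of ribosomal RNA modification, while their spliced transcripts are mostly destroyed by nonsense-mediated decay. PVT1 lies beside MYC, MIR31HG is the host transcript of the microRNA miR-31, and TINCR is induced in epidermal differentiation. TINCR is annotated today by RefSeq as protein coding, so its place in the class is an older one.

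The array of shNT replicate 2 stood apart from the others, with correlations of 0.974 to 0.989 to the other arrays and an interquartile range of 3.33 log2 units, against 3.46 to 3.52 in the rest. Basal epithelial keratin genes were bright, with KRT5 and KRT14 at signal percentiles of 99.6 and 97.1. The luminal keratin genes KRT8 and KRT18 were bright too, at 95.9 and 96.3. Luminal KLK3, KLK2, ACP3 and HOXB13 lay at percentiles from 26.0 to 34.1. Among all genes 9.55% rose and 8.95% fell in shPKCi at a limma adjusted p under 0.05, the threshold used throughout. Of the 7 measured basal markers, 5 fell and 0 rose, and their summed intensity was 10121.7 to 10284.8 in shPKCi arrays, against 12263 to 13363.9 in shNT arrays. Luminal markers numbered 6 (0 rose, ACP3 fell), with sums of 2637 to 2723 in shPKCi and 1921 to 2600 in shNT. Among 8 fibroblast and mesenchymal markers COL1A1 fell and 0 rose (sums of 841 to 901 in shPKCi and 1005 to 1112 in shNT). They ranged widely in signal, with DCN and LUM at the 3.4th and 1.8th percentiles, COL1A1 at the 62.1th and VIM at the 91.5th. VIM, at 584 to 623 in shPKCi and 703 to 736 in shNT, was the largest part of these sums. The 5 endothelial markers lay between the 17.9th and 21.8th percentiles and the 5 blood markers between the 1.2th and 34.5th. Endothelial KDR fell by 0.43 and the T cell gene CD3D rose by 0.34 on the log2 scale. Endothelial sums were 94.2 to 109 in shPKCi and 99.8 to 113 in shNT, and blood sums 123 to 138 in shPKCi and 109 to 133 in shNT. The part of these markers in the results was not tested, and in bulk RNA fewer cells of a type and less RNA per cell cannot be told apart.

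Sequences are shown for 3 features of the member loci. MIR31HG shares its locus with miR-31, which has a probe set of its own, and the mature strand hsa-miR-31-5p (RefSeq, GRCh38.p14, chr9:21512158-21512178, minus strand) is given with its seed, bases 2 to 8, in capitals.
hsa-miR-31-5p: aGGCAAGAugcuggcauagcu
GAS5 and SNHG1 were given no value of their own, and snoRNAs from their introns are described below without standing for the host level. The RefSeq start windows of GAS5 and SNHG1 run from 250 bases before to 50 bases after the annotated start. They lie at chr1:173868996-173869295 and chr11:62855836-62856135 of GRCh38.p14, both on the minus strand. Both genes are known as terminal oligopyrimidine genes, whose transcripts begin in a run of C and T. The capitals mark the longest run of C and T within 50 bases of the annotated start, or each run where 2 are equally long. No marked run begins at the annotated start, so the capitals are not shown to be that tract.
GAS5: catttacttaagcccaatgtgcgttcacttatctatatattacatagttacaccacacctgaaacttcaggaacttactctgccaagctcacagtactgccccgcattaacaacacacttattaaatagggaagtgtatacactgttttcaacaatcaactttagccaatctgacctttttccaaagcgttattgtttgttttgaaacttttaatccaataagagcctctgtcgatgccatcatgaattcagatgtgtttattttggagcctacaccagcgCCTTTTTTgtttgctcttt
SNHG1: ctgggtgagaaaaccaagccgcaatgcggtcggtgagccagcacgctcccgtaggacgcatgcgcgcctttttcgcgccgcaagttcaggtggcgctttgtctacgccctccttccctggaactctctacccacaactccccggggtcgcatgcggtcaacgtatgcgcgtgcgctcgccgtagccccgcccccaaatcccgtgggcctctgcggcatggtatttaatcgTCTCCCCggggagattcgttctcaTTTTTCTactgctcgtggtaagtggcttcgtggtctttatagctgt
The run was 8 bases long in GAS5, beginning at position 32 after the start, while SNHG1 had 2 runs of 7 bases, one beginning 20 bases before its start and the other at position 5 after it. Runs at least as long stood in 35.9% and 49.4% of all 35116 RefSeq windows of that length, so that such a run is common.

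Short motifs were searched on both strands in 7 windows of 6 members (GAS5, SNHG1, SNHG12, H19, MIR31HG and MALAT1). UCA1, NEAT1 and TINCR had no window used here, and PVT1 was left out. ACGTG, the core of the hypoxia response element, stood in none of the 7 and in 21.4% of all windows. CACGTG, the E-box, which contains that core, stood in none and in 7.26% of all windows. The AP-1 site TGACTCA, whose other strand reads TGAGTCA, stood in none and in 4.95%. GGAATG, the TEAD site, stood in the window of SNHG12 and in 14.0% of all windows. A match describes letters in the window and is no evidence of binding.

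UCA1 was the member with a large difference between the lines. On probe set 8026490 it read 633, 759 and 601 in the shPKCi arrays, against 152, 104 and 152 in the shNT arrays. The groups did not overlap, and the lowest shPKCi array was far above the highest shNT array. Mean log2 intensity was 9.37 ± 0.18 in shPKCi and 7.06 ± 0.32 in shNT (SD, n = 3 each), a log2 fold change of 2.30 or 4.94-fold. Only 4 of all 18404 genes had a larger rise, and 0 of the 624 other long non-coding RNA genes differed by as much in either direction. Because UCA1 was picked on this same difference, a high rank follows from the choice and is no separate evidence. shNT replicate 2, the array that stood apart, was also the lowest for UCA1, and without it the log2 fold change was 2.12. Leaving out each of the 6 arrays in turn gave 2.12 to 2.40.

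**Figure D1:**
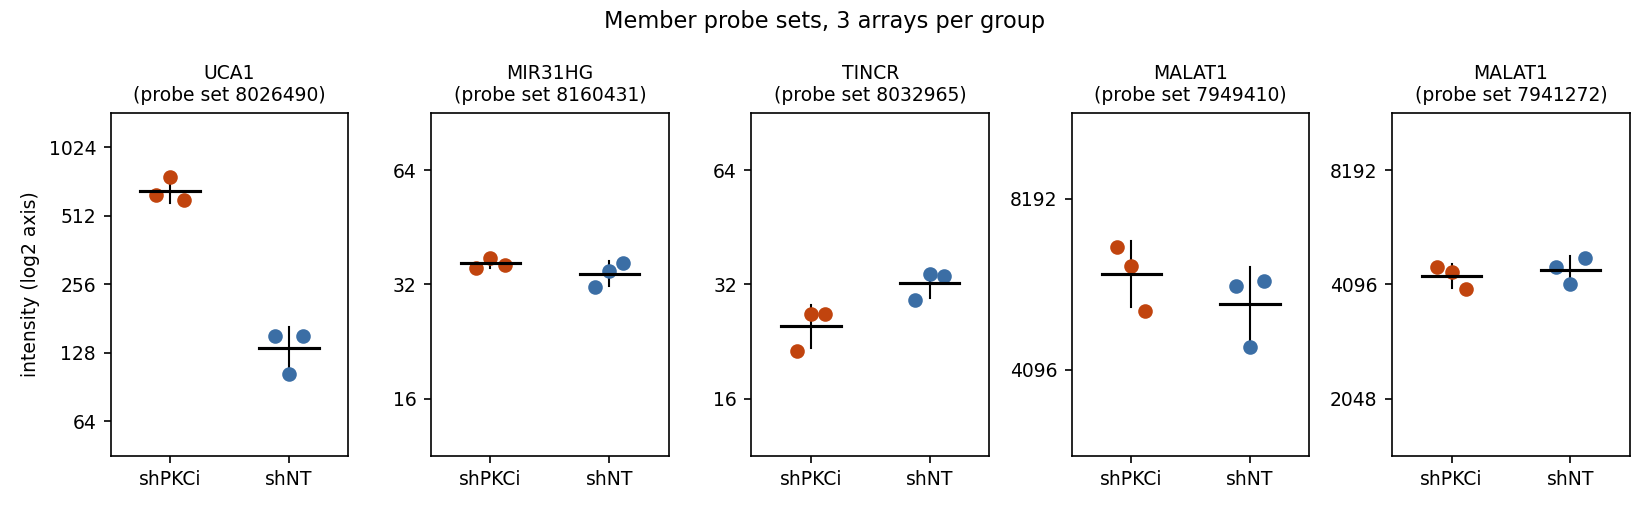
Intensity on a log2 axis of the 5 member probe sets, shPKCi left and shNT right, 1 point per array, with the mean of log2 values as a bar and its SD as a line (n = 3). UCA1 lies at 601 to 759 in shPKCi and 104 to 152 in shNT, the groups of TINCR lie apart by a small margin, and those of MIR31HG and both MALAT1 probe sets overlap.

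The genes most like UCA1 in pattern were taken by Pearson correlation of log2 intensity over the 6 arrays, as a description. They were PPP2R3C, a regulatory subunit gene of protein phosphatase PP2A, at r = 0.9990, TFRC, the transferrin receptor gene, at 0.9988, and SYNCRIP, an RNA-binding protein gene, at 0.9985. NOL9, a polynucleotide kinase gene of ribosomal RNA processing, followed at 0.9983 and IDH3A, a subunit gene of mitochondrial isocitrate dehydrogenase, at 0.9981. Without shNT replicate 2 the 5 values of r lay between 0.998 and 0.999. All 6 points share the same 2 groups, so that any gene with a wide and even gap between the lines scores high. The gaps themselves were smaller than that of UCA1, from 0.48 in SYNCRIP to 1.33 in TFRC on the log2 scale. TFRC, with the widest of the 5, averaged 10.98 in shPKCi and 9.65 in shNT.

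Neither flanking gene of UCA1 passed the test. OR10H1, an olfactory receptor gene, and CYP4F2, a fatty acid hydroxylase gene, are the nearest protein-coding genes on either side in the RefSeq table. OR10H1 differed by -0.01 log2 units (SE 0.18, adjusted p = 0.974) and CYP4F2 of -0.16 (SE 0.15, adjusted p = 0.538). Both were dim, at the 16.7th and 14.3th percentiles of signal.

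None of the 3 other measured members passed the test, where 18.5% of all genes did (limma, adjusted p under 0.05). The groups did not overlap in 1 of the 3, TINCR, against 35.7% of all genes. That 18.5% is 3406 genes, and it was 2129 and 2045 genes without shPKCi replicate 1 and without shPKCi replicate 2. A p above the threshold does not show that a level was the same, and the interval of each difference is given below.

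TINCR, which binds STAU1 and epidermal transcripts in human keratinocytes, was lower in shPKCi by a small amount that missed the threshold. Its intensities were 21.4, 26.7 and 26.7 in shPKCi, against 29.1, 34.1 and 33.7 in shNT. Every shPKCi array was below every shNT array, at the 26.2th percentile of signal. The log2 difference was -0.38 (SE 0.12, 95% interval -0.65 to -0.10, adjusted p = 0.0596). TINCR passed with the replicate number as a replicate block (adjusted p = 0.0466) and among genes above the lower quartile of signal (adjusted p = 0.0417). In the 6 fits without 1 array its adjusted p lay between 0.0574 and 0.215. The flanking gene SAFB2, for a scaffold attachment factor, rose by 0.78 (adjusted p = 0.000862), with 608, 621 and 615 in shPKCi and 377, 384 and 317 in shNT. ZNRF4 on the other side differed by -0.02 log2 units (adjusted p = 0.911).

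MALAT1 was at the 99.9th percentile of signal and its 2 probe sets gave no difference past the threshold. The brighter, 7949410, had 6747, 6247 and 5209 in shPKCi and 5765, 4490 and 5883 in shNT. The other, 7941272, had 4559, 4402 and 3972 in shPKCi and 4545, 4096 and 4809 in shNT. The groups overlapped in both. The brighter differed by 0.18 log2 units (SE 0.14, 95% interval -0.14 to 0.49, adjusted p = 0.466), and 0.05 without shNT replicate 2. For the other the value was -0.06 (SE 0.10, 95% interval -0.29 to 0.18, adjusted p = 0.792 over all probe sets), so that the probe sets differ in sign.

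MIR31HG was dim, at the 31.5th percentile of signal, and did not pass. Its intensities were 35.4, 37.5 and 36.1 in shPKCi, against 31.4, 34.7 and 36.5 in shNT, and the groups overlapped. The log2 difference was 0.09 (SE 0.10, 95% interval -0.13 to 0.31, adjusted p = 0.614). MIR31, the hairpin gene of the mature strand printed above, had 29.6, 26.7 and 34.7 in shPKCi and 27.0, 40.9 and 24.4 in shNT. Its log2 difference was 0.01 (SE 0.19, adjusted p = 0.984), and between -0.14 and 0.23 with 1 array left out. The flanking gene MTAP, which encodes the methylthioadenosine phosphorylase of methionine salvage, rose by 0.55 (adjusted p = 0.00352), with 349, 330 and 327 in shPKCi and 214, 245 and 227 in shNT.

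Genes of proteins and pathways known to work with UCA1 or MIR31HG passed in 3 of 18 measured cases, a share near the 18.5% of all genes that did, so that the count is no result about the list. LATS1, a Hippo pathway kinase gene, rose by 0.37 (adjusted p = 0.0315), while the glucose transporter gene SLC2A1 fell by 1.26 and the hexokinase gene HK2 by 0.82 (adjusted p = 0.000139 and 0.00159). The other 15 did not pass, and the median was -0.02, as it was for all genes. Without shPKCi replicates 1, 2 or 3 or shNT replicate 1 the call of LATS1 was lost, with adjusted p of 0.0581 to 0.127, and it was lost with a replicate block (0.0633) and with cyclic loess (0.0687). Without shNT replicate 2, 3 genes rose and 2 fell.

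Of 7 measured snoRNAs in the introns of GAS5, 4 rose, 0 fell and 3 did not pass, and of 2 of SNHG1 both rose, where 9.55% of all genes rose. Among all 176 snoRNA genes 32 rose and 9 fell, with a median log2 fold change of 0.06, against 0.59 for those of GAS5 and 0.92 for those of SNHG1. The 176 were dimmer, with a median at the 21.1th percentile of signal, against 67.8 for the GAS5 set and 83.5 for the SNHG1 set. These medians were therefore not compared at like signal. SNORD75 had the largest difference, with 130, 139 and 112 in shPKCi, against 57.5, 26.6 and 55.3 in shNT. The groups did not overlap, and its log2 fold change was 1.53 (SE 0.26, adjusted p = 0.00296), or 1.17 without shNT replicate 2. SNORD28 of SNHG1 had 341, 328 and 269 in shPKCi and 189, 112 and 159 in shNT. That is a log2 fold change of 1.06 (SE 0.18, limma adjusted p = 0.00329), and the groups did not overlap.

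The remaining calls among these snoRNAs were lost in 1 to 4 of the 6 fits without 1 array. Over all genes these fits gave 2045 to 3894 past the threshold, against 3406 with all arrays. SNORD44 rose by 0.95 (adjusted p = 0.0137), with 286, 366 and 263 in shPKCi and 173, 108 and 202 in shNT, and lost the call without shPKCi replicate 2 (0.0586). SNORD30 of SNHG1 rose by 0.79 (adjusted p = 0.0174), with 773, 808 and 904 in shPKCi and 459, 657 and 362 in shNT. Its call was lost without shPKCi replicate 2, shPKCi replicate 3 or shNT replicate 1, with adjusted p up to 0.0660. SNORD81 rose by 0.78 (adjusted p = 0.0300) and lost the call without shPKCi replicate 1, shPKCi replicate 2 or shNT replicate 3 (up to 0.118). SNORD74 rose by 0.58 (adjusted p = 0.0393) with groups that overlapped, and lost it without shPKCi replicates 2 or 3 or shNT replicates 1 or 3 (up to 0.150). SNORD78, SNORD77 and SNORD79 had log2 fold changes of 0.59, 0.45 and 0.31 (adjusted p = 0.0580, 0.179 and 0.376). SNORD78 passed in 6 of the 15 alternatives, with adjusted p of 0.0218 to 0.0436, and SNORD77 passed with the replicate block (0.0488).

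Each of the 9 hosted snoRNAs was higher on average in shPKCi, as were 108 of all 176 snoRNA genes and 8649 of all 18404 genes. The 9 come from GAS5 and SNHG1 alone, so they are not 9 independent cases. The array of shNT replicate 2 was the lowest in 6 of the 9. Without that array 4 snoRNAs of GAS5 and 2 of SNHG1 still passed, while without shPKCi replicate 2 only 1 of GAS5 and 1 of SNHG1 did. With shNT replicate 3 left out 2 of GAS5 passed, and 1 of SNHG1 passed without shPKCi replicate 3 or shNT replicate 1. A probe set of a snoRNA can also bind the unspliced host transcript, and these cannot be told apart here. For SNHG12 no snoRNA had a probe set with its symbol alone.

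**Figure D2:**
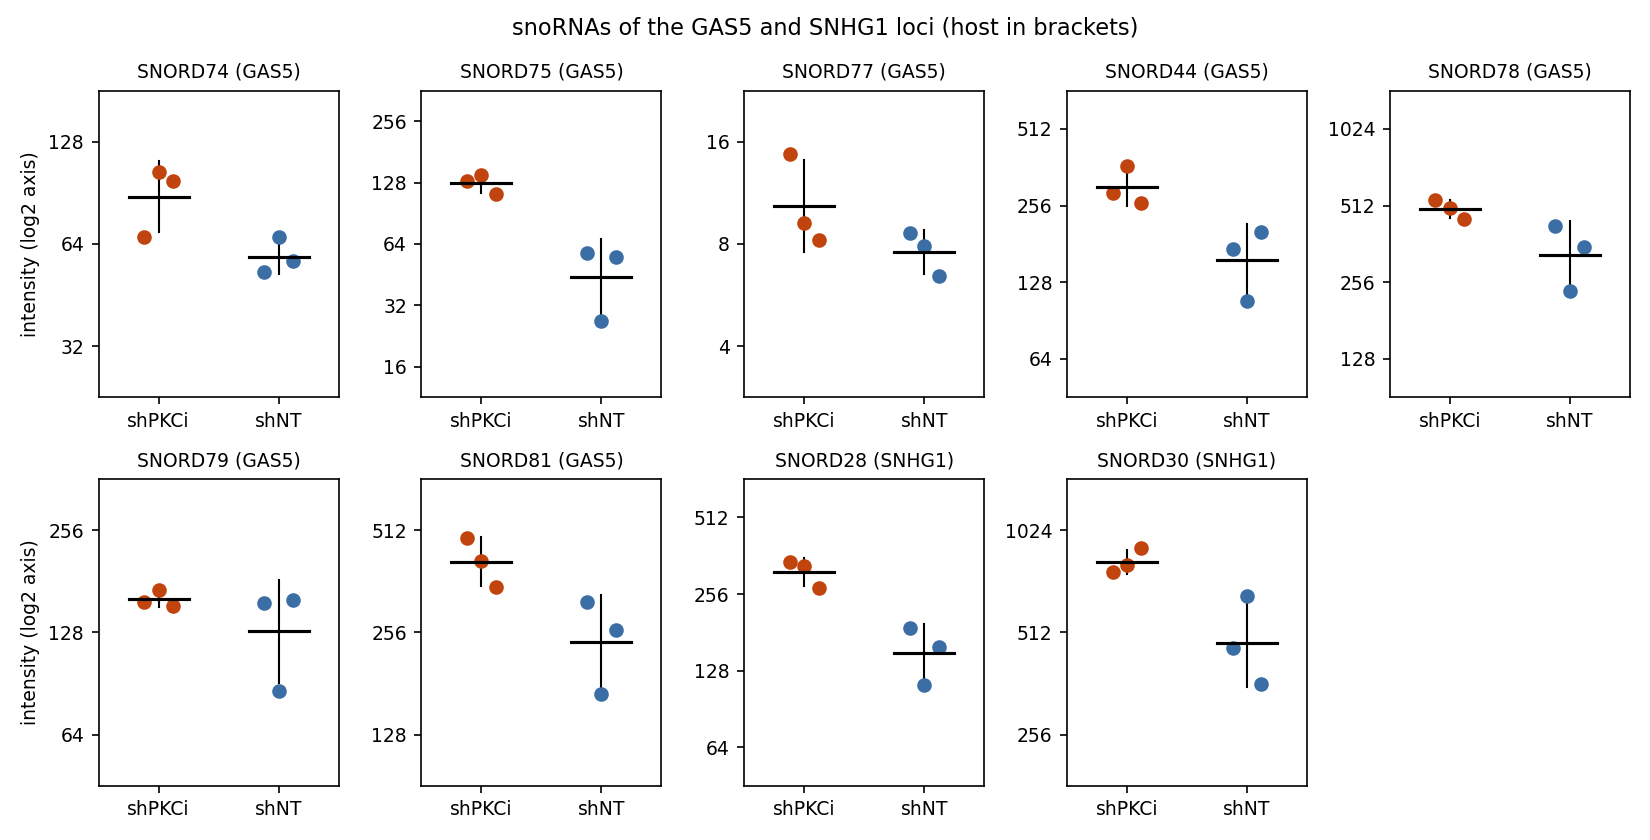
Intensity on a log2 axis of 9 snoRNAs from the introns of GAS5 and SNHG1, shPKCi left and shNT right, 1 point per array, with the mean of log2 values as a bar and its SD as a line (n = 3). The groups do not overlap in SNORD75, SNORD44, SNORD78, SNORD81, SNORD28 and SNORD30, and they overlap in SNORD74, SNORD77 and SNORD79. Groups do not overlap in 35.7% of all genes and in 33.5% of all 176 snoRNA genes.

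Both genes that flank SNHG1 rose. WDR74, a ribosome assembly gene, had 282, 229 and 252 in shPKCi and 148, 114 and 159 in shNT, a log2 fold change of 0.87 (SE 0.14, limma adjusted p = 0.00231). SLC3A2, the heavy chain gene of several amino acid transporters, had 519, 489 and 501 in shPKCi and 324, 349 and 327 in shNT, a log2 fold change of 0.60 (adjusted p = 0.00184). In neither did the groups overlap. Across the 10 loci, 13 of 18 nearest protein-coding genes were measured. Of these 4 rose (WDR74, SLC3A2, MTAP and SAFB2) and GSDMC fell, where 18.5% of all genes changed. Those that passed lay at the 61.4th to 87.6th percentiles of signal. Those that did not lay at the 11.7th to 50.4th, except MYC at the 97.7th. Above the median signal 29.9% of all genes passed and below it 7.15%, and the count was not matched for signal. The neighbours FRMD8 of NEAT1 and MALAT1, TNNT3 of H19, SERPINC1 of GAS5 and RAB42 of SNHG12 had log2 fold changes of 0.12, -0.17, 0.03 and -0.30, with adjusted p from 0.172 to 0.902.

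Of 17 measured nonsense-mediated decay factors, which degrade the spliced GAS5 and SNHG transcripts, 7 rose, 0 fell and 10 did not pass. Of all genes, 9.55% rose and 8.95% fell. The list's median lay at the 74.5th percentile of signal, and 29.9% of all genes above the median signal passed in either direction. These counts were not matched for signal. The termination factor genes GSPT1 and ETF1 both rose by 0.55 (adjusted p = 0.00775 and 0.0117), DHX34 by 0.40 (0.0221) and PNRC2, a decapping adaptor gene, by 0.38 (0.0167). UPF1, the central helicase gene, differed by 0.23 log2 units (adjusted p = 0.303). The median was 0.25, against -0.02 for all genes. Of these calls, that of ETF1 was lost without shPKCi replicate 2 (0.0596), that of PNRC2 without shPKCi replicates 1 or 2 or shNT replicate 3 (up to 0.0744) and with cyclic loess (0.0524), and that of DHX34 without any shPKCi array or shNT replicate 1 (up to 0.0830). The number that rose was 2, 1 and 4 without shPKCi replicates 1, 2 and 3, and 5, 9 and 4 without shNT replicates 1, 2 and 3.

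Of 23 measured genes of nuclear speckles, where MALAT1 resides, and of splicing, 8 rose, 2 fell and 13 did not pass, with a median of 0.27. Among all genes 9.55% rose and 8.95% fell. This list was bright, with a median at the 94.4th percentile of signal, and 29.9% of all genes above the median signal passed in either direction. Its counts were not matched for signal. CLK1 and CLK4, kinase genes that act on splicing factors, fell by 0.63 and 0.48 (adjusted p = 0.00133 and 0.00611). U2AF2, for the large subunit of the factor that binds the 3-prime splice site, rose by 0.47 and the speckle protein gene RBM25 by 0.49 (adjusted p = 0.0092 and 0.0099). CLK1 had 523, 495 and 526 in shPKCi and 832, 787 and 778 in shNT, with no overlap. The number that rose was 3, 2 and 5 without shPKCi replicates 1, 2 and 3 and 6, 10 and 5 without shNT replicates 1, 2 and 3, and 2 fell in each of these fits.

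Paraspeckle protein genes, the partners of NEAT1, changed in 8 of 23 measured members, where 18.5% of all genes changed. The list was bright, with a median at the 85.8th percentile of signal, and 29.9% of all genes above the median signal changed. The count was not matched for signal. FAM98A rose by 0.92 (adjusted p = 0.000288), FIGN by 0.55 (0.0053) and SFPQ, a core paraspeckle protein gene, by 0.41 (0.0196), while ZC3H6 fell by 1.24 (0.00026). Another core gene, NONO, differed by -0.01 log2 units (adjusted p = 0.978). In all 6 rose and 2 fell, against 9.55% and 8.95% of all genes, with a median of 0.18. The call of SFPQ was lost without shPKCi replicates 1 or 2 or shNT replicate 3 (up to 0.0900). The number that rose was 2, 2 and 3 without shPKCi replicates 1, 2 and 3 and 3, 7 and 2 without shNT replicates 1, 2 and 3, and between 1 and 2 fell.

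The next list was built around imprinted genes expressed together with H19 in mouse, and it also holds IGF1R, which is not called imprinted here. Of its 16 measured genes 1 rose and 3 fell, where 9.55% of all genes rose and 8.95% fell. SGCE, a sarcoglycan gene, fell by 0.97 (adjusted p = 0.000809), PLAGL1, a zinc finger factor gene known to control this set, by 0.63 (0.00254), and IGF1R, the IGF1 receptor gene, by 0.55 (0.00589). PHLDA2 rose by 0.41 (0.0320) and lost the call without any shPKCi array or shNT replicate 1 (up to 0.111). The median was -0.15.

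At the PVT1 locus 1 of the coding neighbours, GSDMC, passed the test. MYC had 1698, 1688 and 1779 in shPKCi and 1418, 1595 and 1410 in shNT, without overlap, and a log2 fold change of 0.23 (SE 0.10, limma adjusted p = 0.149). Leaving out shNT replicate 2 brought MYC past the threshold (adjusted p = 0.0423), as did array weights (0.0358). GSDMC, of the gasdermin family and on the other side of PVT1, fell by 0.70 (adjusted p = 0.00352). Among 11 genes of the MYC network and this locus, 2 rose and 2 fell, against 9.55% and 8.95% of all genes, with a median of 0.02. MXI1, a MYC antagonist gene, fell by 0.96 (adjusted p = 0.000149), MXD1, another, rose by 0.67 (0.0193) and MLX, a dimer partner gene, by 0.39 (0.0165). MXD1 and MLX lost the call without shPKCi replicate 1 or shPKCi replicate 2 (up to 0.0793).

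Of 23 measured genes of epidermal differentiation, the setting in which TINCR is known, 9 fell, 0 rose and 14 did not pass, where 8.95% of all genes fell. CASP14, a caspase gene of cornification, had 25.5, 23.2 and 48.8 in shPKCi and 1005, 654 and 1089 in shNT, the widest gap in any of these lists. TGM1, the keratinocyte transglutaminase gene, fell by 2.33 (adjusted p = 1.62e-06), ZNF750, a differentiation factor gene, by 1.72 (3.57e-05) and KRTDAP by 1.59 (0.000156). STAU1, which encodes the protein partner of TINCR, differed by 0.05 log2 units (adjusted p = 0.792). The median was -0.22, and 9 to 11 members fell when 1 array was left out. Some of these genes were among the largest differences already known in these arrays, so that the list is no independent evidence.

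**Figure D3:**
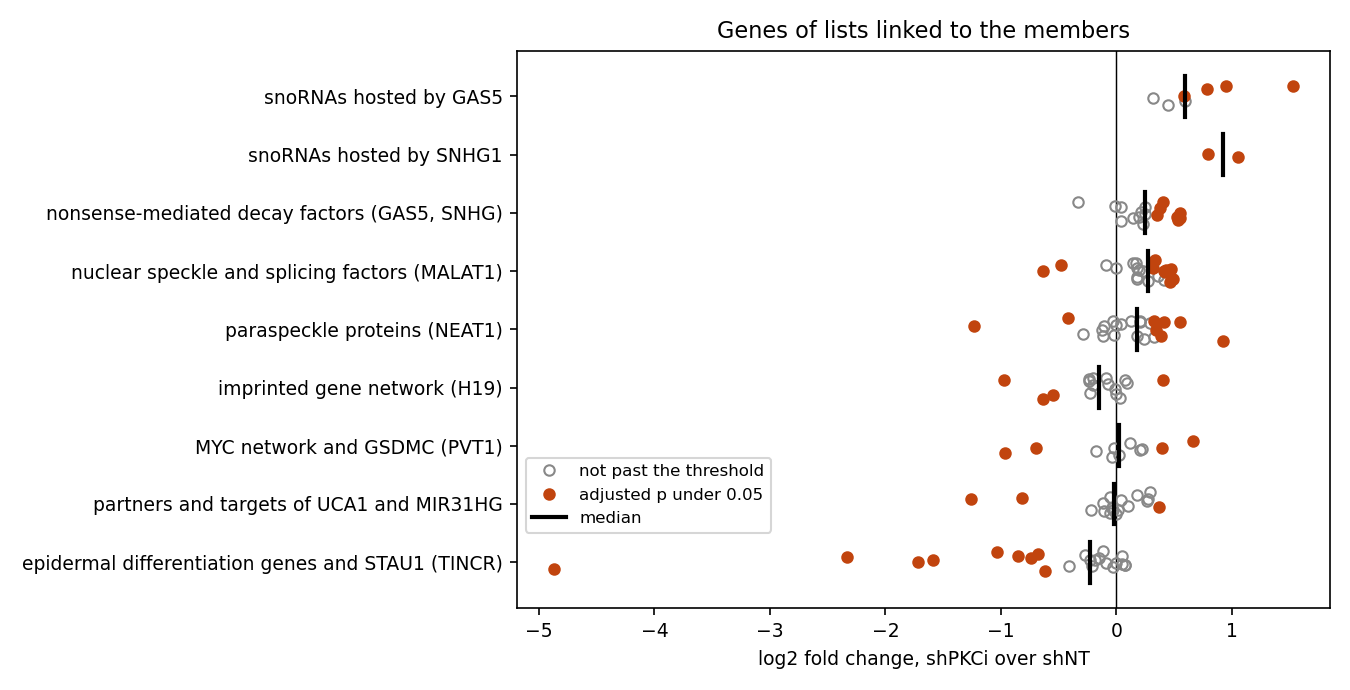
Log2 fold change, shPKCi over shNT, of each measured gene in 9 lists linked to the members, filled where the adjusted p was under 0.05 and open otherwise, with the median of each list as a bar. Vertical scatter within a row is for display. The snoRNA lists lie to the right of 0 in every member, with medians of 0.59 and 0.92. Of all 176 snoRNA genes, 108 lie to the right of 0. The epidermal list reaches furthest to the left, to CASP14.

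Other long non-coding RNA genes changed in few cases and by small amounts. Of 624 measured by symbol or RefSeq type, 19 rose and 24 fell, together 6.89%, with a median log2 fold change of -0.04. The class was dim, with a median at the 24.2th percentile of signal, and signal moved with the share of calls. Below the median signal, 28 of 543 of the class passed (5.16%), against 7.15% of all genes there, and above it 15 of 81 (18.5%), against 29.9%. The number past the threshold was 25, 21 and 25 without shPKCi replicates 1, 2 and 3, and 28, 54 and 27 without shNT replicates 1, 2 and 3.

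Only 4 of the 43 differed at least 2-fold. PCOTH had 79.5, 80.9 and 79.3 in shPKCi and 32.1, 30.9 and 33.9 in shNT, a log2 fold change of 1.31 (SE 0.09, limma adjusted p = 2.32e-05). DLEU1, from the region of chromosome 13 deleted in chronic lymphocytic leukaemia, had 166, 185 and 199 in shPKCi and 92.1, 63.4 and 86.0 in shNT, a log2 fold change of 1.20 (adjusted p = 0.000548). VLDLR-AS1 had 179 to 199 in shPKCi and 529 to 533 in shNT, and fell by 1.51 (SE 0.09, adjusted p = 1.19e-05). LMNTD2-AS1, the last of the 4 and named after its value was seen, fell by 1.07. The groups did not overlap in any of these genes.

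**Figure D4:**
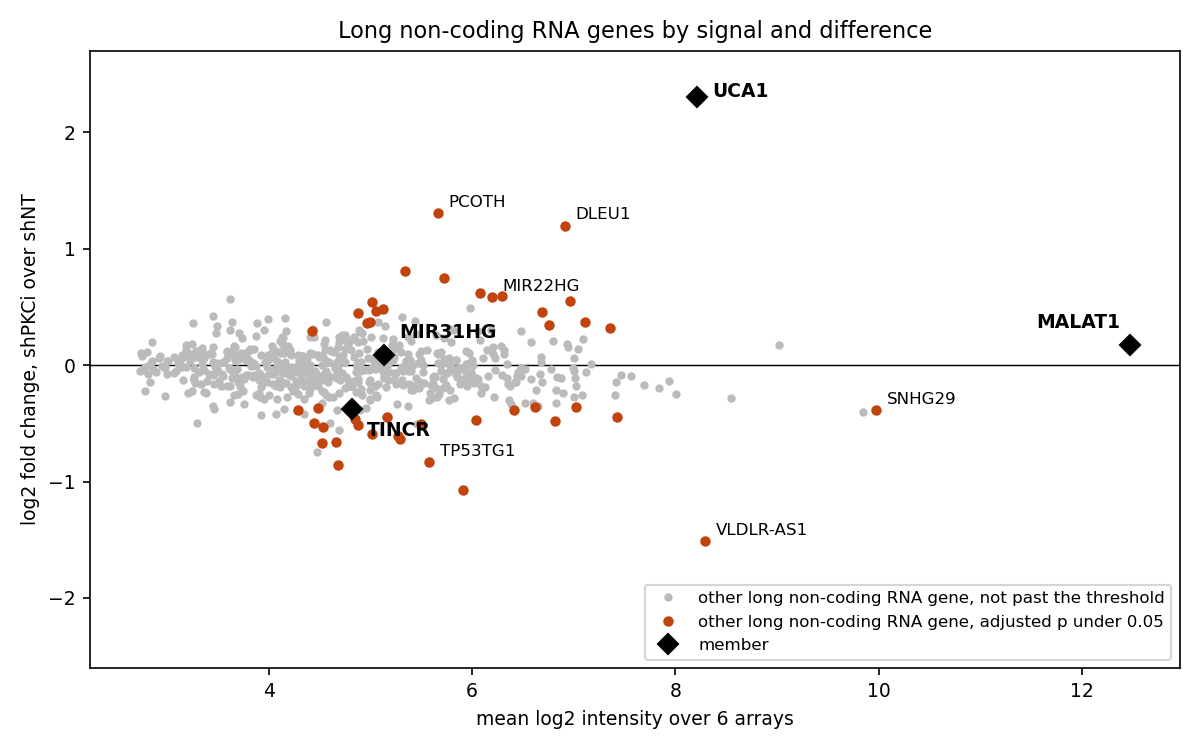
Log2 fold change, shPKCi over shNT, against mean log2 intensity over the 6 arrays for 624 other long non-coding RNA genes (grey, or red where the adjusted p was under 0.05) and the 4 measured members (diamonds). UCA1 at 2.30 lies above every other gene of the class, of which PCOTH at 1.31 is the highest and VLDLR-AS1 at -1.51 the lowest. UCA1 was picked on this difference.

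Among 25 measured genes of a list of well-known long non-coding RNAs, 5 rose and 4 fell, where 9.55% of all genes rose and 8.95% fell. DLEU1 rose as above, and MIR22HG, the host of miR-22, rose by 0.58 (adjusted p = 0.00961), with the call lost without shPKCi replicate 2 (0.0501). TP53TG1, named as a p53 target, fell by 0.83 (0.00081), and RPPH1, the RNA of ribonuclease P, by 0.60 (0.00665). TP53TG1 had 32.2, 36.3 and 39.3 in shPKCi and 68.8, 59.5 and 63.4 in shNT. The snoRNA host ZFAS1 and the nuclear transcript TUG1 had log2 fold changes of -0.41 and -0.26 (adjusted p = 0.0735 and 0.154). The list's median was -0.16, and the numbers that rose and fell were 2 and 2, 1 and 2, and 2 and 2 without shPKCi replicates 1, 2 and 3, and 3 and 2, 4 and 6, and 2 and 4 without shNT replicates 1, 2 and 3.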

How the data were processed

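RNA from 6 samples was read on 1 array per sample, and titles set the groups. Each intensity, deposited by the authors for a probe set, came from RMA, per the submitters' processing notes, and its linear scale was read from the values. The software version and genome build are not given in the sources used here. The method corrects background and normalizes between arrays. No detection call was used, so dim genes may lie at background. The log2 of each of 32321 deposited intensities was taken without a pseudocount.

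The platform annotation gave 19158 probe sets 1 symbol and 1388 several, and did not list 11775. Probe sets with 1 symbol were kept, and for genes with several the brightest was used (18404 genes, no filter). limma 3.58.1 (lmFit, eBayes) in R 4.3.3 compared the groups without covariates, with Benjamini-Hochberg adjustment over all genes and a threshold of 0.05. The fit was tested on simulated data. Genes with an unadjusted p under 0.05 numbered 5473, and 0 pairs of arrays were identical. Whether samples came from separate cultures is not stated beyond the series' wording.

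Members and lists were chosen with earlier results of these data known. Named genes (65) were the members, up to 4 of the smallest adjusted p per list, measured hosted snoRNAs, nearest coding neighbours in RefSeq, 5 genes most like UCA1, and PRKCI. Other genes were named after their values were seen. Same-numbered samples correlated at 0.12, -0.06 and -0.18 in their deviations from group means, so the numbers do not pair them. The alternatives tried were the number as a replicate block, leaving out each array, median centring, cyclic loess, 2 signal filters, other probe set choices, a trended robust variance and array weights. List counts without each array were added after the data were seen.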

Additional observations from a re-analysis of the deposited data

How the results depend on the processing

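UCA1 kept its direction and lay between 2.12 and 2.40 in all 15 alternatives. Among the other 3 measured members, 0 passed in 13 alternatives and TINCR alone passed in 2, so that the count was 1 with a replicate block and 1 among genes above the lower quartile of signal. The samples share only a number, and the replicate block gave 2978 genes past the threshold, against 3406 without it. Leaving out 1 array gave 2045 to 3894 genes, 0 to 0 of the 3 members and 21 to 54 other long non-coding RNA genes. The last count was 43 with all arrays. It was 21 in the fit of genes above the median of signal alone, where 15 of 81 passed in the main fit. With array weights it was 72. The cause of these shifts was not tested. Of 49 named genes that passed, UCA1 apart, 36 did so in every alternative they entered. The named genes include those of smallest adjusted p per list and those most like UCA1. That share therefore follows in part from the choice and does not describe all genes. No gene that passed changed sign. Only genes near 0 did, and none of them passed: MIR31 lay between -0.14 and 0.23 without 1 array, OR10H1 between -0.15 and 0.23, SERPINC1 between -0.0559 and 0.113 and ZNRF4 between -0.0510 and 0.0301. OR10H1 was 0.0193 with median centring, 0.0126 with cyclic loess and 0.0851 with array weights. ZNRF4 was 0.0105 with median centring and 0.0223 with cyclic loess, and SERPINC1 was -0.0172 with array weights. For these signs the cause was not tested. MIR31HG and TINCR lay below the median of signal and were left out by that filter.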

Other observations

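Antisense and divergent long non-coding RNA genes were set beside the gene they are named after, a pairing chosen after the data were seen. Of 191 pairs with both genes measured, 15 antisense or divergent genes passed the test. Among all genes 18.5% passed, and among the other long non-coding RNA genes 6.89%. The named partner passed in the same direction in 7 of the 15, in the opposite direction in 1 and did not pass in 7, while 51 of all 191 partners passed in either direction. VLDLR-AS1 fell by 1.51 and VLDLR, a lipoprotein receptor gene, fell by 1.70 on the log2 scale. IL6-AS1 rose by 0.75 and IL6, the cytokine gene, by 1.48 (limma, adjusted p = 0.00468 and 0.00011). NEXN-AS1 rose by 0.46 and NEXN, for an actin filament protein, by 1.02. EIF3J-DT was the opposite case, fell by 0.38, and lies beside the translation initiation factor gene EIF3J, which rose by 0.64. Whether the labelled strand keeps each pair apart is not given in the sources used here.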
